A study of Mus musculus with 6 samples.

Results

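The genes described here include those that make the surrogate light chain and carry out V(D)J recombination in B-cell precursors. They are Vpreb1, Vpreb3, Igll1, Rag1, Rag2, Dntt and the cytokine receptor gene Il7r, 7 of the 18193 genes measured. They were chosen by name, and each was read from the probe sets that the platform annotation gives to that symbol alone, 11 in all. Of several sets for 1 gene, the set of highest mean level stood for it.

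The arrays measured RNA of leukaemia cells, labelled as B-cell leukaemia, from C57BL/6 mice, with 3 Cdh1-deficient and 3 Cdh1-intact arrays. Marrow donors of both kinds carried the homozygous conditional gene-trap allele (Cdh1f/f) and were littermates. Donors with the Mx1-Cre transgene and donors without it received pIpC, which switches on Mx1-Cre, at 7 to 8 weeks of age. Their bone marrow was taken 4 weeks after the last injection and 2 days after 150 mg/kg 5-fluorouracil, and both groups carried N-myc in the retroviral vector pMXs-IG. GFP-positive mononuclear cells were sorted from the marrow of moribund mice, and the labels name no sort on a B-cell surface marker. Mx1-Cre acts in interferon-responsive cells and is not specific to B cells. The Cdh1 of the study is the coactivator of the APC/C ubiquitin ligase encoded by the mouse gene Fzr1. The comparison addressed how leukaemia cells with and without Cdh1 differ in expression.

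B-cell precursors first rearrange the immunoglobulin heavy chain gene. The RAG1 and RAG2 proteins cut at the recombination signals, and terminal transferase, the product of Dntt, adds bases at the heavy-chain joints. The finished heavy chain pairs with the surrogate light chain, made of the VpreB and lambda5 proteins (lambda5 is the product of Igll1), to form the pre-B-cell receptor on the surface. Signals from this receptor and from the IL-7 receptor drive expansion of the precursors. The transcription factors EBF1 and E2A (the product of Tcf3) are known to activate the mouse Vpreb1 and Igll1 genes, and most of these genes are shut off as the cell matures.

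The values are log2 levels made by RMA, with a median of 5.07 to 5.13 and a lower quartile of 3.75 to 3.83 on each array. Levels near or below the lower quartile are close to the low end of the scale, and they were compared between arrays for 1 gene at a time. Cdh1-intact array 2 stood apart from the rest. Its defining B-lineage genes lay low, with Cd79a at 4.86 and Cd79b at 4.35, against 8.68 to 9.29 and 11.60 to 12.47 on the other 5 arrays. Its T-cell receptor complex gene Cd3g lay at 12.48, against 3.31 to 3.52 on the Cdh1-deficient arrays and 3.25 and 7.95 on Cdh1-intact arrays 1 and 3. These defining markers go against the B-cell label of the array, though not every listed gene followed them. Cd4 lay at 5.64 and Cd8a at 5.27 there, against 5.41 to 5.58 and 5.04 to 5.33 on the other 5 arrays. Cd72 at 8.54 and H2-Ab1 at 8.90 lay far above the array median, though H2-Ab1 was lowest there. Cd4, Cd8a, Cd72 and H2-Ab1 were named after their values were seen. Most differences of single genes and the medians of gene lists are also given without Cdh1-intact array 2. Fzr1 lay at 8.10, 7.73 and 8.22 on the Cdh1-deficient arrays, against 8.92, 8.04 and 8.92 on the Cdh1-intact arrays, and did not pass the test (limma adjusted p = 0.849). The position of its probes relative to the gene trap was not analysed here, so these values are no check of the genotype.

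No gene of the set differed between Cdh1-deficient and Cdh1-intact cells beyond the spread between arrays. With limma, 0 of the 7 passed an adjusted p under 0.05, where 0% of all 18193 genes did. At an unadjusted p under 0.05 there were 0 of the 7 and 1000 of all genes, or 5.5%. The groups overlapped for all 7, while 11.7% of all genes had groups that did not overlap. The median log2 difference of the 7 was −0.11, with 5 lower and 2 higher in Cdh1-deficient cells, beside a median of 0.0034 over all genes. Without Cdh1-intact array 2 the differences of all 7 were below 0, with a median of −0.49, beside 0.0035 over all genes. Again none passed (limma adjusted p = 0.801 to 0.938). The share of all genes below 0 in that setting was not counted, and the 7 genes were read from the same RNA samples.

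**Figure D1:**
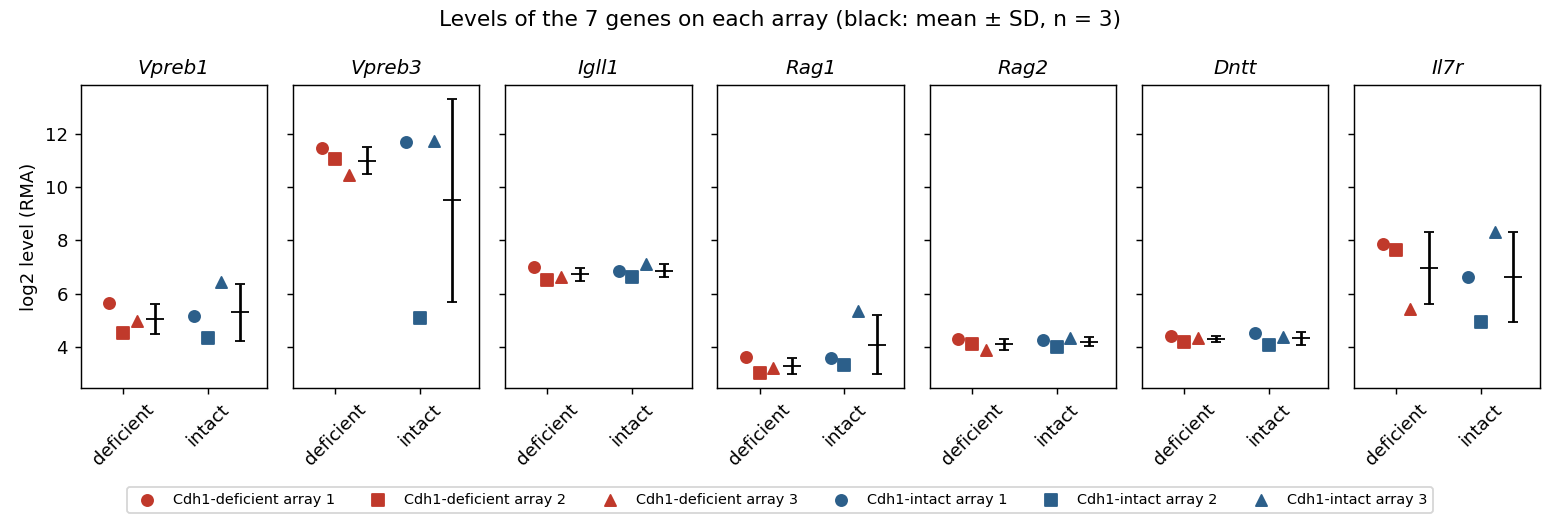
Log2 RMA levels of the 7 genes on each array, with Cdh1-deficient arrays in red and Cdh1-intact arrays in blue. Black marks give the group mean and SD (n = 3 each). Vpreb3 is high on 5 arrays and lies at 5.09 on Cdh1-intact array 2, Rag1 stands out at 5.36 on Cdh1-intact array 3, and Rag2 and Dntt are low and flat.

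Vpreb1 encodes a VpreB protein of the surrogate light chain, Vpreb3 a related protein, and Igll1 the lambda5 chain. The promoter windows of these genes are shown because their chosen probe sets differed in the second highest array. It was Cdh1-deficient array 1 for Vpreb1 and Igll1 and Cdh1-intact array 1 for Vpreb3. Cdh1-intact array 3 was highest for each, and the other Igll1 probe set had another order. A link between the windows and these levels was not tested. Each window runs from 250 bases before the gene's start to 50 bases after it, 5′ to 3′ on the gene's strand, from RefSeq on GRCm38.p6. Capitals mark matches on either strand to the E-box CAGGTG, the form that E2A binds, or to CCCNNGGG, the core of EBF1 sites. The window of Vpreb1 is chr16:16869206-16869505 (minus strand), that of Igll1 chr16:16863936-16864235 (minus strand) and that of Vpreb3 chr10:75948050-75948349 (plus strand).
Vpreb1: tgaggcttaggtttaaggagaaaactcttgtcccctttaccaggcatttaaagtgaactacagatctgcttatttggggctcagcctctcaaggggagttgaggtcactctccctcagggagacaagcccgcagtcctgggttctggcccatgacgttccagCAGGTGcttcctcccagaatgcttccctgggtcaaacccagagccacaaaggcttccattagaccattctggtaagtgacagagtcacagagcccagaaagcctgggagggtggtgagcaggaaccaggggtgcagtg
Igll1: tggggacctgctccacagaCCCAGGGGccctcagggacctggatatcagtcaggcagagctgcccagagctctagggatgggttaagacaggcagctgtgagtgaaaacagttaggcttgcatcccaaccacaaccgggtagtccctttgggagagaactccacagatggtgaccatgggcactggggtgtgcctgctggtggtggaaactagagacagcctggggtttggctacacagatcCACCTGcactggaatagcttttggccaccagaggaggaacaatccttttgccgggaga
Vpreb3: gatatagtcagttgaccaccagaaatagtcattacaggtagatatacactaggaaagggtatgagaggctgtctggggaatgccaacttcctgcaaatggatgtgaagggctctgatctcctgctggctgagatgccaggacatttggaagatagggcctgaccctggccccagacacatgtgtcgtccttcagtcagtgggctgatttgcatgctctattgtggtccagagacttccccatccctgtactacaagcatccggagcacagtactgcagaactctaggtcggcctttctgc
Vpreb1 and Igll1 are neighbours on chromosome 16 with 0 protein-coding genes between them in the RefSeq table. The windows of both held 1 match to the E-box, and Igll1 also held 1 match to CCCNNGGG. The Vpreb3 window held neither, nor did those of Rag2, Dntt and Il7r, for which Cdh1-deficient array 1 was also second highest. That array was second highest for Rag1 too, whose window held 1 match to the E-box. Of all 32851 RefSeq promoter windows of this length, 20.2% held the E-box and 13.7% held CCCNNGGG. A match describes the letters of the window and was not tested as a binding site.

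Vpreb3, whose product binds nascent immunoglobulin chains inside the cell, had the widest spread of the 7 genes. It lay at 11.48, 11.05 and 10.46 on Cdh1-deficient arrays 1, 2 and 3, against 11.69, 5.09 and 11.74 on Cdh1-intact arrays 1, 2 and 3. All arrays but Cdh1-intact array 2 were high, and that array lay 5.37 below the next lowest. Over all 6 arrays the mean was 10.99 ± 0.51 in Cdh1-deficient and 9.51 ± 3.83 in Cdh1-intact cells (SD, n = 3 each). The log2 difference of 1.49 (SE 1.83) did not pass (limma adjusted p = 0.889), and its 95% interval ran from −3.01 to 5.99. Without Cdh1-intact array 2 the direction turned, with a difference of −0.72 (SE 0.30, limma adjusted p = 0.801). In that setting the 3 Cdh1-deficient arrays all lay below the 2 Cdh1-intact arrays. Vpreb3 was the only one of the 7 genes for which the groups then did not overlap, while 21.4% of all genes had such a separation with these 5 arrays and 10.2% of all genes had it in the lower direction.

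Vpreb1, which encodes the V-like part of the surrogate light chain, lay at 5.65, 4.51 and 4.99 on the Cdh1-deficient arrays, against 5.14, 4.31 and 6.45 on the Cdh1-intact arrays. The highest and the lowest of the 6 were both Cdh1-intact, so the groups overlapped. Cdh1-intact array 3 exceeded the next array, Cdh1-deficient array 1, by 0.79 on the log2 scale. The difference was −0.25 (SE 0.59, limma adjusted p = 0.941) and −0.75 (SE 0.49) without Cdh1-intact array 2. It turned to 0.32 without Cdh1-intact array 3 and to 0.019 without Cdh1-deficient array 2. Vpreb1 and its near-identical paralog Vpreb2 share a further probe set, which the annotation gives to both and which was not used, and signal of the paralog in the Vpreb1 probe set was not tested.

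Igll1 lay at 7.00, 6.53 and 6.63 on the Cdh1-deficient arrays, against 6.84, 6.63 and 7.12 on the Cdh1-intact arrays. The 6 values stayed within 0.59 on the log2 scale, with Cdh1-intact array 3 highest and Cdh1-deficient array 1 next, as for Vpreb1. The means were 6.72 ± 0.25 in Cdh1-deficient and 6.86 ± 0.25 in Cdh1-intact cells (SD, n = 3 each), a difference of −0.14 (SE 0.19, limma adjusted p = 0.897), or −0.26 (SE 0.19) without Cdh1-intact array 2. With all arrays its 95% interval of −0.60 to 0.32 bounds the difference more tightly than for Vpreb1, whose interval ran from −1.69 to 1.18. The chosen Igll1 probe set carries the suffix of sets whose probes may also match other transcripts. The other Igll1 probe set, without that suffix, lay at 4.85, 4.73 and 4.69 on the Cdh1-deficient arrays, against 4.95, 4.79 and 4.57 on the Cdh1-intact arrays. That set was lowest on Cdh1-intact array 3, where the chosen set was highest, so the order of the arrays for Igll1 depended on the probe set.

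Rag1 and Rag2 encode the recombinase and are neighbours on chromosome 2. The Rag1 promoter window, chr2:101649483-101649782 (minus strand, GRCm38.p6), is shown because Rag1 stood above the low end of the scale on 1 array. Its capitals mark 1 match to the E-box, and the Rag2 window held neither motif.
Rag1: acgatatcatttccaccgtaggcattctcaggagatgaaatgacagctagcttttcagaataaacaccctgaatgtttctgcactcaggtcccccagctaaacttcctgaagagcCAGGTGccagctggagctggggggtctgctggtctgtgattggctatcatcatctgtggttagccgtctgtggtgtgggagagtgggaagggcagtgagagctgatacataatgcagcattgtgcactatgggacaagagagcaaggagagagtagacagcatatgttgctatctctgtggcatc
Rag1 lay at 3.61, 3.01 and 3.20 on the Cdh1-deficient arrays, against 3.58, 3.30 and 5.36 on the Cdh1-intact arrays. Cdh1-intact array 3 alone was raised, while the other 5 arrays lay below the lower quartile of their array, so the size of the gap between them is uncertain. The difference of −0.80 (SE 0.56) did not pass (limma adjusted p = 0.849), and it was −0.16 without Cdh1-intact array 3. Without Cdh1-intact array 2 it was −1.19 (SE 0.53, limma adjusted p = 0.807). Rag2 lay at 4.28, 4.11 and 3.87 on the Cdh1-deficient arrays, against 4.25, 4.00 and 4.33 on the Cdh1-intact arrays. These values spanned 0.46 on the log2 scale, and Cdh1-intact array 3 was 0.05 above the next array. The Rag2 difference was −0.11 (SE 0.15, limma adjusted p = 0.905), or −0.20 (SE 0.16) without Cdh1-intact array 2. It was 0.0023 without Cdh1-deficient array 3.

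Dntt, the gene of terminal transferase, was flat. It lay at 4.41, 4.18 and 4.32 on the Cdh1-deficient arrays, against 4.52, 4.07 and 4.36 on the Cdh1-intact arrays. The difference was −0.01 (SE 0.15, limma adjusted p = 0.990) with a 95% interval of −0.38 to 0.36, and −0.14 (SE 0.13) without Cdh1-intact array 2. Its sign turned under 7 of 14 alternatives. Both other Dntt probe sets lay between 2.80 and 3.19 on all 6 arrays. Each of the 3 probe sets thus read a low level on each array, Cdh1-intact array 2 included.

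Il7r encodes the alpha chain of the IL-7 receptor, which B-cell and T-cell precursors and many T cells use. It lay at 7.88, 7.62 and 5.41 on the Cdh1-deficient arrays, against 6.63, 4.94 and 8.31 on the Cdh1-intact arrays. Both groups held high and low arrays, and the SD was 1.36 in Cdh1-deficient and 1.69 in Cdh1-intact cells (n = 3 each). The difference of 0.35 (SE 1.03) did not pass (limma adjusted p = 0.954) and its 95% interval ran from −2.18 to 2.88. The direction turned to −0.49 without Cdh1-intact array 2 and to −0.11 without Cdh1-deficient array 1. The other Il7r probe set lay at 5.81, 5.01 and 3.97 on the Cdh1-deficient arrays, against 5.07, 4.19 and 6.64 on the Cdh1-intact arrays. Cdh1-intact array 3 was highest in both sets, and Cdh1-deficient array 3 and Cdh1-intact array 2 were the lowest pair in both. The second set gave a difference of −0.37 (SE 0.73), so the sign of the group difference depended on the probe set. The range over the 6 arrays was 3.37 for the chosen set and 2.67 for the other.

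**Figure D2:**
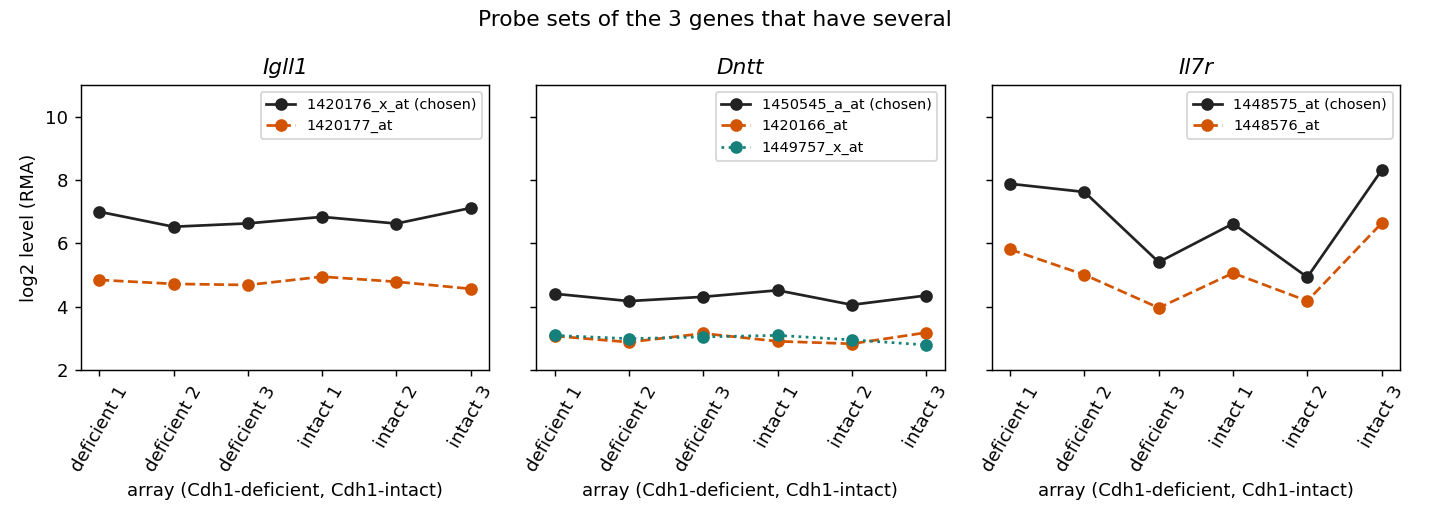
Log2 RMA levels of every probe set of Igll1, Dntt and Il7r on the Cdh1-deficient and Cdh1-intact arrays. The 2 Il7r sets are high and low on the same arrays, the second Igll1 set stays between 4.57 and 4.95, and the 2 further Dntt sets lie between 2.80 and 3.19.

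**Figure D3:**
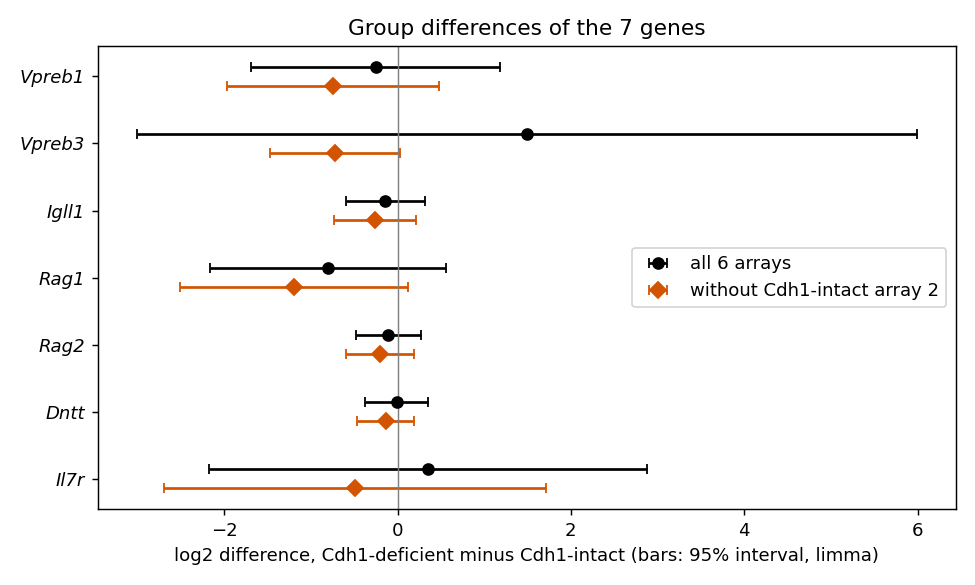
Log2 difference of each gene, Cdh1-deficient minus Cdh1-intact, with its 95% interval from limma, over all 6 arrays (black circles) and without Cdh1-intact array 2 (orange diamonds). Every interval includes 0, and Vpreb3 moves from 1.49 to −0.72 when that array is left out.

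The order of arrays within each group was compared for the chosen probe sets of the 7 genes. Cdh1-deficient array 1 was the highest of the Cdh1-deficient arrays for 7 of 7 genes, as it was for 40.1% of all genes. Cdh1-intact array 2 was the lowest of the Cdh1-intact arrays for 7 of 7, as for 35.9% of all genes, and both held together for 13.9% of all genes. Cdh1-intact array 3 was the highest of its group for 6 of 7, as for 33.1% of all genes, and Dntt, highest on Cdh1-intact array 1, was the exception. This order was not particular to the 7 genes. Means of pre-B-cell receptor partners and of pro-B and pre-B transcription factors had the same highest and lowest arrays within each group. So did means of other pro-B and pre-B genes and of immature and mature B-cell genes. Means of the V(D)J break factors and of IL-7 receptor signalling genes did not. For Igll1, Rag2 and Dntt the order rests on small gaps, as they spanned 0.59, 0.46 and 0.46 on the log2 scale. Rag1 lay below the lower quartile on 5 arrays. The counts also rest on the chosen probe sets. The other Igll1 set and 1 of the other Dntt sets were lowest on Cdh1-intact array 3, and another Dntt set was the highest of the Cdh1-deficient arrays on array 3. These counts describe 6 arrays, and members on 1 array share its RNA sample. How far the genes varied also differed among them. The SD over the 6 arrays was 2.57 for Vpreb3, 1.38 for Il7r, 0.85 for Rag1 and 0.78 for Vpreb1, against 0.23 for Igll1, 0.18 for Rag2 and 0.16 for Dntt, with a median of 0.20 over all genes.

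The genes of nearest pattern were found by the root mean square difference of log2 levels, each gene centred on its own mean over the 6 arrays. For Vpreb3 these were Hepacam2 at 0.16 and Fcrla, which encodes an intracellular Fc receptor-like protein of B cells, at 0.17. Fcrla lay at 10.28, 9.90 and 9.33 on the Cdh1-deficient arrays, against 10.14, 3.63 and 10.66 on the Cdh1-intact arrays. Hepacam2 and Fcrla were both lowest on Cdh1-intact array 2, as Vpreb3 was. For Vpreb1 they were Carhsp1 at 0.18 and Tppp at 0.20, and for Rag1 the integrin gene Itga1 at 0.20 and the interferon-stimulated gene Usp18 at 0.25. All of these were highest on Cdh1-intact array 3. Il7r had no gene as close, with Endou at 0.37 and Milr1 at 0.50. Igll1 (Map2k2 at 0.03 and Ttll9 at 0.04), Rag2 (Ros1 at 0.03 and Gad1os at 0.04) and Dntt (Hpn at 0.03 and Hoga1 at 0.04) spanned so little that small distances say little of their pattern.

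**Figure D4:**
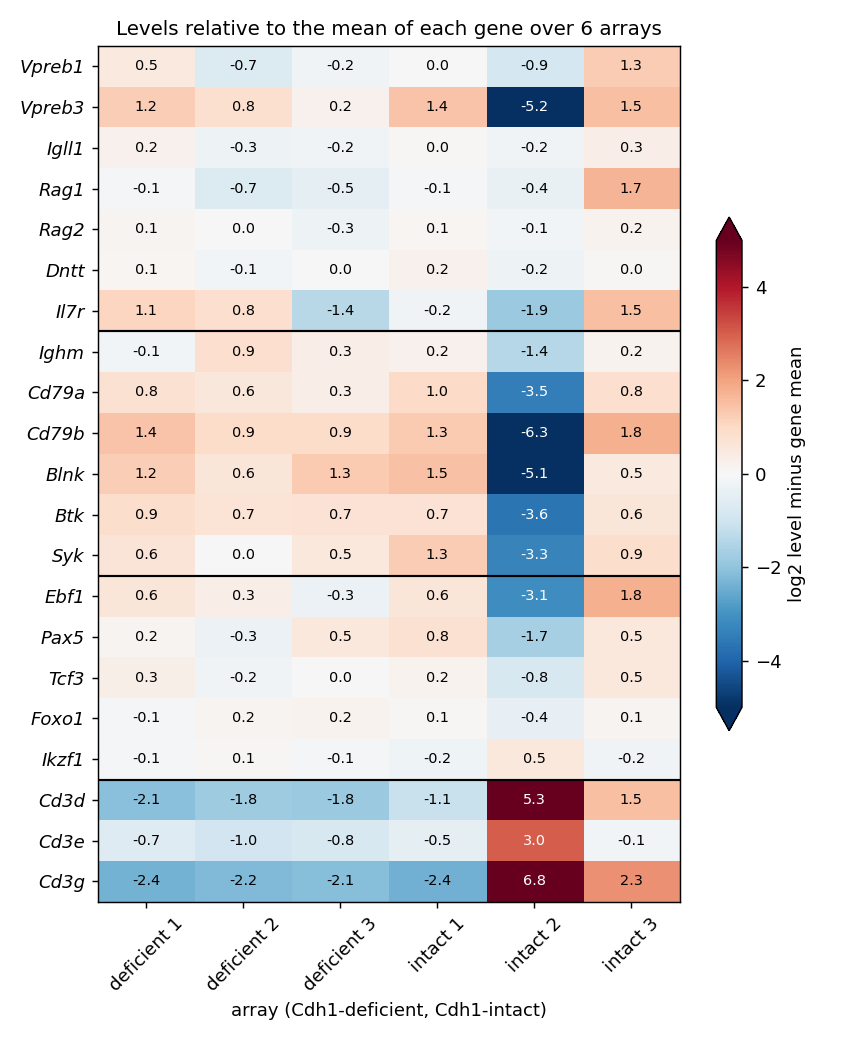
Log2 levels of the 7 genes, of pre-B-cell receptor partners, of B-lineage transcription factors and of CD3 genes, each minus the gene's mean over the 6 arrays, on Cdh1-deficient and Cdh1-intact arrays. Colours saturate at 5 in either direction. Vpreb3, Cd79b and Blnk are lowest on Cdh1-intact array 2, where the CD3 genes are highest. Igll1, Rag2 and Dntt vary little beside these, with SDs of 0.23, 0.18 and 0.16 and a median of 0.20 over all genes.

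Partners of the pre-B-cell receptor were measured beside its surrogate light chain. Ighm, the mu heavy chain gene, lay at 12.52, 13.51 and 13.00 on the Cdh1-deficient arrays, against 12.86, 11.23 and 12.82 on the Cdh1-intact arrays. It was lowest on Cdh1-intact array 2 but lay far above the array median there too. Of 16 measured partners and signalling genes 0 passed, 15 were higher and 1 lower in Cdh1-deficient cells, with a median of 0.73. Without Cdh1-intact array 2 there were 8 higher and 8 lower, with a median of 0.02. Plcg2, the phospholipase of B-cell receptor signalling, differed by 0.76 (SE 0.55), or by 0.10 (SE 0.12) without that array. The adaptor gene Pik3ap1 differed by 0.66 (SE 0.49) and by 0.09 (SE 0.15) without it.

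Transcription factors of pro-B and pre-B cells followed. Of 24 measured, 0 passed, with 13 higher, 11 lower and a median of 0.04. Without Cdh1-intact array 2 there were 9 higher and 15 lower, with a median of −0.19. Ebf1 lay at 8.37, 8.08 and 7.47 on the Cdh1-deficient arrays, against 8.37, 4.65 and 9.54 on the Cdh1-intact arrays. It was lowest on Cdh1-intact array 2 and highest on Cdh1-intact array 3, as were Vpreb1, Vpreb3 and Il7r. Tcf3 spanned less, at 10.61, 10.17 and 10.32 on the Cdh1-deficient arrays, against 10.50, 9.51 and 10.85 on the Cdh1-intact arrays. Foxo1, which is known to activate Rag and Il7r transcription, lay at 7.65, 7.92 and 7.93 on the Cdh1-deficient arrays, against 7.82, 7.35 and 7.91 on the Cdh1-intact arrays. Ebf1, Tcf3 and Foxo1 were named here after their values were seen. With all arrays they differed by 0.45 (SE 1.23), 0.08 (SE 0.36) and 0.14 (SE 0.18) in that order. Without Cdh1-intact array 2 the differences were −0.98 (SE 0.42), −0.31 (SE 0.19) and −0.033 (SE 0.14), and none passed. By the naming rule, Ikzf3, a zinc finger factor that pre-B-cell receptor signals induce, differed by −0.59 (SE 0.25), Runx1 by −0.54 (SE 0.30) and Bcl11a by 2.22 (SE 1.63). These differences were −0.39 (SE 0.22) for Ikzf3, −0.26 (SE 0.22) for Runx1 and 0.25 (SE 0.30) for Bcl11a without Cdh1-intact array 2.

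The next list held genes of break joining together with break-response and chromatin factors such as Ctcf and Hmgb2. Of 17 measured genes out of 20 listed, 0 passed, 8 were higher and 9 lower, and the median was −0.02. Without Cdh1-intact array 2 there were 12 higher and 5 lower, with a median of 0.21. Kmt2d, a histone H3 lysine methyltransferase, differed by 0.44 (SE 0.22), the end-joining polymerase gene Poll by 0.36 (SE 0.23) and the Ku-binding factor gene Paxx by −0.22 (SE 0.15). Without that array the differences were 0.27 (SE 0.20) for Kmt2d, 0.61 (SE 0.12) for Poll and −0.092 (SE 0.14) for Paxx, with limma adjusted p = 0.801 for Poll.

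Genes of IL-7 receptor signalling, 19 measured, gave 0 that passed, 7 higher and 12 lower, with a median of −0.29, or −0.082 without Cdh1-intact array 2. Socs3, a feedback inhibitor of JAK-STAT signalling, lay at 4.80, 6.64 and 4.15 on the Cdh1-deficient arrays, against 6.65, 7.56 and 6.81 on the Cdh1-intact arrays. Its groups did not overlap, though Cdh1-deficient array 2 came within 0.01 of Cdh1-intact array 1, and the difference of −1.81 (SE 0.66) did not pass (limma adjusted p = 0.849), nor did −1.53 (SE 0.72) without Cdh1-intact array 2. The kinase gene Jak1 differed by −0.50 (SE 0.28) and Stat5a by −0.38 (SE 0.22), or by −0.20 and −0.17 without Cdh1-intact array 2.

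Other genes of the pro-B and pre-B stages, 19 measured, gave 0 that passed, 10 higher and 9 lower, with a median of 0.01. Without Cdh1-intact array 2 there were 6 higher and 13 lower, with a median of −0.14. The receptor tyrosine kinase gene Flt3 lay at 8.17, 8.996 and 8.92 on the Cdh1-deficient arrays, against 8.02, 5.42 and 7.07 on the Cdh1-intact arrays. Cd2, an adhesion gene that mouse B and T cells share, lay at 9.74, 8.88 and 9.65 on the Cdh1-deficient arrays, against 10.51, 10.74 and 10.10 on the Cdh1-intact arrays. Neither pair of groups overlapped, and neither gene passed (limma adjusted p = 0.849 for both). Flt3 differed by 1.86 (SE 0.67), or by 1.15 (SE 0.38) without Cdh1-intact array 2. Cd2 differed by −1.02 (SE 0.29), or by −0.88 (SE 0.30) without it. The actin-binding gene Cnn3 differed by 2.53 (SE 1.87), or by 0.33 (SE 0.56) without Cdh1-intact array 2. Immature and mature B-cell genes, 17 measured, had a median of 0.69 with 11 higher, which turned to −0.19 with 5 higher without Cdh1-intact array 2. Ms4a1, the CD20 gene, differed by 2.78 (SE 1.68), Ciita by 1.11 (SE 0.57) and Fcmr by 0.97 (SE 0.50), and none of the 17 passed. Without that array they differed by 0.85 (SE 0.62), 0.62 (SE 0.47) and 0.47 (SE 0.32) in the same order.

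**Figure D5:**
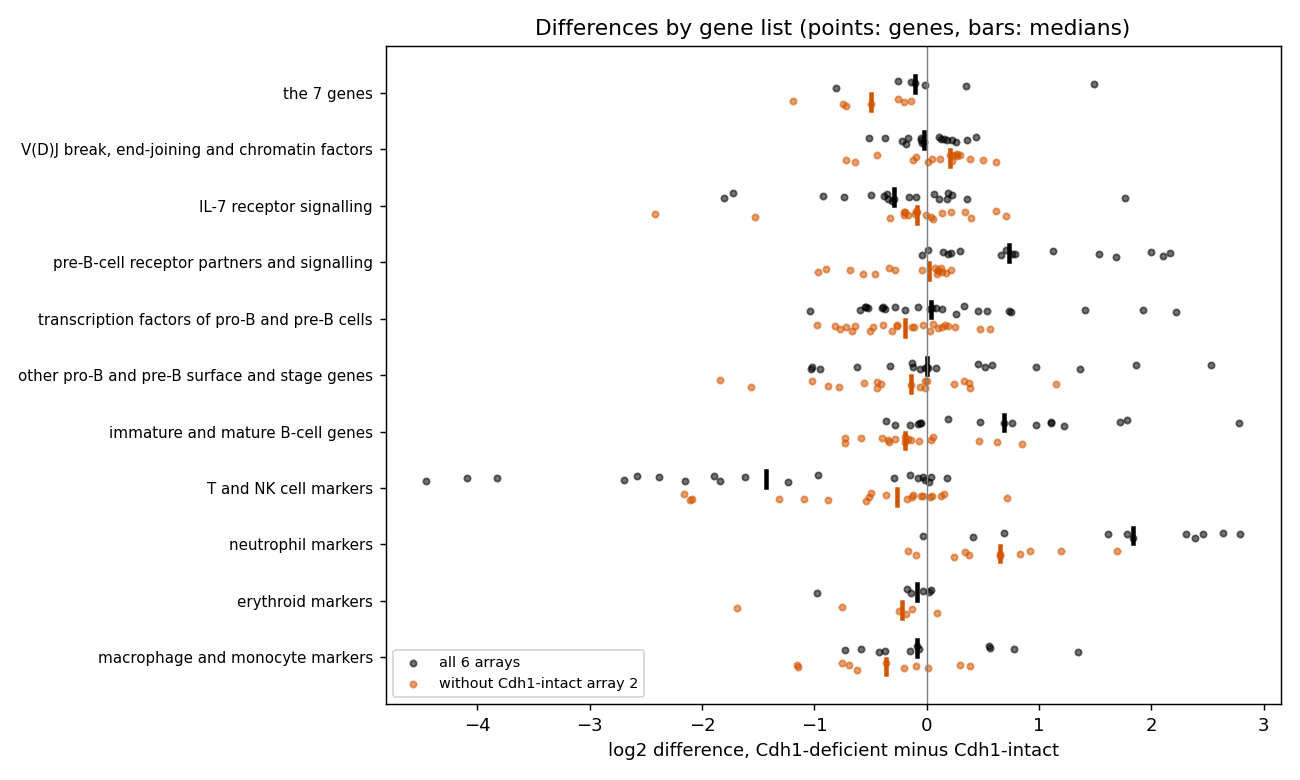
Log2 differences of the genes in each list, Cdh1-deficient minus Cdh1-intact, over all 6 arrays (black) and without Cdh1-intact array 2 (orange), with the median of each list as a bar. The medians of the pre-B-cell receptor partners and of the T and NK markers lie nearer 0 when that array is left out, and that of the 7 genes lies at −0.49.

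Markers of other cell types also differed between the arrays. The mean of the 20 measured T and NK markers was 4.89 to 4.94 on the Cdh1-deficient arrays, against 4.84, 8.32 and 6.08 on Cdh1-intact arrays 1, 2 and 3. Of the 20, 17 were lower in Cdh1-deficient cells, with a median of −1.43, or −0.27 without Cdh1-intact array 2. Cd3d differed by −3.83 (SE 1.54), Cd247 by −2.70 (SE 1.23) and Gzma by −4.10 (SE 1.90), none past the threshold. Without that array Cd3d differed by −2.11 (SE 0.72), Cd247 by −1.31 (SE 0.56) and Gzma by −2.09 (SE 1.08). Cdh1-intact array 3, with the second highest mean of these markers, carried the highest Rag1, Vpreb1 and Il7r. On Cdh1-intact array 2, with the highest, Rag1 lay at 3.30 and Vpreb1 and Il7r were the lowest of the 6 arrays. The part of T cells in the values of Cdh1-intact array 3 was not tested, and in bulk RNA fewer cells of a type and less RNA per cell cannot be told apart.

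The mean of the 11 measured neutrophil markers was 8.96, 10.95 and 9.72 on the Cdh1-deficient arrays, against 9.73, 5.93 and 8.82 on the Cdh1-intact arrays. It was lowest on Cdh1-intact array 2. Of these 11, 10 were higher in Cdh1-deficient cells, with a median of 1.84, and 0.65 without that array. Mmp9 differed by 1.84 (SE 0.94), Mmp8 by 2.79 (SE 1.43) and Csf3r by 0.41 (SE 0.25), or by 1.19, 1.69 and 0.24 without that array. The 6 erythroid markers had a median of −0.09 (Hba-a1 at −0.14, Alas2 at −0.98, Klf1 at −0.17). Hba-a1 lay at 3.27 to 3.61, below the lower quartile of each array. Alas2 was raised on Cdh1-intact array 1 alone, at 9.31, against 4.82 to 5.61 on the others. The erythroid median was −0.22 without Cdh1-intact array 2, with Hba-a1 at −0.19, Alas2 at −1.69 and Klf1 at −0.25. The 11 macrophage and monocyte markers had a median of −0.09 (Lyz2 at 1.35, C1qb at −0.73, Cd68 at 0.56). Without that array the median was −0.36, with Lyz2 at 0.38, C1qb at −1.15 and Cd68 at −0.095, which turned its sign. The erythroid mean peaked at 6.55 and the macrophage mean at 7.34, both on Cdh1-intact array 1. None of these markers passed, and their part in the levels of the 7 genes was not tested.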

How the data were processed

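The authors' deposited table gives each of 45101 probe sets a log2 value on every array. The submitters' processing notes name RMA without a version. RMA adjusts background, equalizes the distributions of the arrays and combines the probes of a set, so a change of total RNA per cell cannot be seen. Groups and replicate numbers come from the sample titles, and the number of arrays limits the precision. The labels describe a harvest from each moribund mouse and do not tie each array to 1 mouse, so p-values measure the spread between these arrays.

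Of the probe sets, 34945 carried exactly 1 symbol in the platform annotation and gave 18193 genes, each read from its set of highest mean. Some list genes were not analysed here. The test between groups was the two-sided moderated test of limma 3.58.1 under R 4.3.3, without trend, with Benjamini-Hochberg adjustment over the whole table and a threshold of 0.05. Intervals are 95% intervals of the same fit, and the script was tested on simulated data. Differences are Cdh1-deficient minus Cdh1-intact.

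The genes and lists were chosen with earlier results of these data known. Besides the 7 genes, the text names the 2 genes of nearest pattern per gene, up to 3 genes of smallest p per list, Fzr1, and genes stated as chosen after their values were seen. Cd79a, Cd79b, Cd3g and Ighm were set as defining markers or lead their list. Promoters come from a RefSeq table that held all 7 genes. Alternatives covered normalization, a filter on level, the choice of probe set, variance estimation, array weights, a replicate block and each array left out.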

Additional observations from a re-analysis of the deposited data

How the results depend on the processing

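None of the 7 genes passed the threshold in any of the 97 fits of single genes under the alternatives, and 0 of all genes passed 0.05 in each setting run. With all 6 arrays 0 also passed 0.1. The lowest adjusted p of any gene was 0.054 when Cdh1-deficient array 2 was left out. It was 0.060 with Cdh1-intact array 1 left out and 0.076 with array 3 of that group left out. Igll1 and Rag1 kept their sign, though Igll1 came to −0.012 without Cdh1-intact array 3 and to −0.016 with no shared-target sets. Rag1 has no value once genes in the lowest quartile of levels are dropped, since its mean lay there. The sign of Dntt turned with quantile normalization (0.020), median centring (0.0032), averaged probe sets (0.050) and no shared-target sets (0.064). That of Il7r turned with averaged probe sets (−0.0082) and with array weights (−0.27). With each array left out in turn the differences ran from −0.75 to 0.32 for Vpreb1, −0.72 to 2.61 for Vpreb3, −0.28 to −0.012 for Igll1, −1.19 to −0.16 for Rag1, −0.20 to 0.0023 for Rag2, −0.14 to 0.093 for Dntt and −0.49 to 1.19 for Il7r. The count of genes whose groups did not overlap was 2135 with 6 arrays and 3148 to 5170 with 5, where fewer arrays have to separate. List medians without Cdh1-intact array 2, added after seeing the data, were 0.21 for the V(D)J break and chromatin factors (all arrays −0.02), −0.082 for IL-7 receptor signalling (−0.29), 0.02 for pre-B-cell receptor partners (0.73), −0.27 for T and NK markers (−1.43) and −0.19 for immature and mature B-cell genes (0.69). The cause of these turns was not tested.

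Same-numbered arrays of the groups did not deviate together (correlations of −0.14, 0.01 and 0.04 across genes), so the numbers were not taken as pairs. With the replicate number as a block, 0 genes passed, and Vpreb3 had a difference of 1.49 (SE 1.64, limma adjusted p = 0.870).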

Other observations

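A few further genes of the lists were chosen after their values were seen. Enpep, which encodes the precursor surface peptidase BP-1, lay at 5.17, 3.45 and 3.47 on the Cdh1-deficient arrays, against 3.44, 3.85 and 6.66 on the Cdh1-intact arrays. Its highest arrays were Cdh1-intact array 3 and Cdh1-deficient array 1, as for the chosen probe sets of Vpreb1, Igll1, Rag1, Rag2 and Il7r. The other Igll1 probe set was lowest on Cdh1-intact array 3. Lig4, the ligase that closes V(D)J joints, lay at 7.46, 7.01 and 6.84 on the Cdh1-deficient arrays, against 6.90, 5.76 and 8.19 on the Cdh1-intact arrays. Cdh1-intact array 3 and Cdh1-deficient array 1 were again highest. The kinase gene Pim2 stood at 11.50 on Cdh1-intact array 1, where the Cdh1-deficient arrays lay at 6.57 to 6.97 and the other Cdh1-intact arrays at 7.09 and 6.84. Ly6d was also raised on that array alone, at 7.52, against 4.57 to 4.70 on the Cdh1-deficient arrays and 4.62 and 4.91 on the other Cdh1-intact arrays.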
